A study of Mus musculus with 10 samples.

Results

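The goblet cell mucus genes described here are Muc2, Tff3, Fcgbp, Zg16, Agr2, Spink4, Spdef, Clca3, Muc13 and Muc3. They were taken by symbol, and all 10 were found, each with 1 identifier, among 36401 genes of the deposited tables. Muc13 and Muc3 are membrane mucins that absorptive cells also express, so the list is not a pure set of goblet cell genes. Goblet cells are secretory cells of the gut epithelium that release the mucus covering it. The gel is built from the polymer of the mucin MUC2, to which other goblet cell proteins bind, while membrane mucins stay on the surface of epithelial cells as part of the glycocalyx. In the small intestine the gel is loose and is freed from the epithelium by proteases, and goblet cell fate depends on the transcription factors ATOH1 and SPDEF.

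RNA of the terminal ileum was sequenced from male C57Bl6 mice, with 5 libraries from mice after vertical sleeve gastrectomy (VSG), fed ad libitum, and 5 from sham-operated, pair-fed mice (SPF). VSG removes most of the stomach, and in pair-feeding the ration is set by the intake of another group. All mice had a diet with 60% of energy from fat for 6 weeks before surgery, were 8 weeks old at surgery, and got the liquid diet Osmolite around it. About 8 weeks later they were fasted overnight, gavaged with 0.5 mL Osmolite and killed 1 hour after it. There was no lean or unoperated group, so effects of the diet and of surgery as such were not measured. The labels tie each library to a mouse ileum, and p-values set differences against the spread between these libraries.

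Libraries held 15364651 to 34058181 estimated reads, and each of the 10 genes had at least 233 reads in each library. The 10 genes together took 1.84 ± 0.395% of all reads in VSG and 1.68 ± 0.502% in SPF (SD, n = 5 each). The 6 secreted products, Muc2, Tff3, Fcgbp, Zg16, Clca3 and Spink4, took 1.271 ± 0.334% in VSG and 1.267 ± 0.481% in SPF. For the 2 membrane mucins these shares were 0.539 ± 0.0773% and 0.376 ± 0.0407%. Levels are given as CPM, the count scaled to the size of the library, with TMM factors that correct for its composition. All libraries are labelled as ileum, but VSG 2, SPF 2 and SPF 4 stood apart in genes of intestinal position: the summed level of 6 upper small intestine markers was 2789.9 to 3226 CPM in them and 23.6 to 57.1 CPM in the other 7, and that of 6 ileal markers 447 to 1657 and 4853 to 9766 CPM. The library SPF 3 also stood apart, with short transcripts high and long ones low. Gastric markers summed to at most 0.724 CPM in any library, and Gkn1, Gkn2 and Muc5ac had no read. In whole tissue, fewer goblet cells and less RNA per goblet cell cannot be told apart.

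Promoter sequences were available for 6 of the 10 genes, as RefSeq windows of 250 bases before to 50 bases after the annotated start (GRCm38.p6). 4 motifs of factors known in goblet cells or intestinal epithelium were searched on both strands: CAGCTG, an E-box of the kind ATOH1 binds, TGTTTAC, the forkhead core of the FOXA factors, CCATAAA, a CDX2 site, and CCGGAT, an ETS core of the kind SPDEF binds. The windows of the gel mucin Muc2 (chr7:141690090-141690389, plus strand), of the mucus protein Fcgbp (chr7:28070986-28071285, plus strand) and of Agr2 (chr12:35992675-35992974, plus strand) are shown 5′ to 3′ because they hold a match, in capitals.
Muc2: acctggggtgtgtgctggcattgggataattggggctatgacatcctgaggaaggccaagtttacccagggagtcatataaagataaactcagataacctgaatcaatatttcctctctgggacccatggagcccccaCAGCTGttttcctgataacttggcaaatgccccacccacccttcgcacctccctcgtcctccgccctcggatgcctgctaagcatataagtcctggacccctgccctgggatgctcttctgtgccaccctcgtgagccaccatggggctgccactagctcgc
Fcgbp: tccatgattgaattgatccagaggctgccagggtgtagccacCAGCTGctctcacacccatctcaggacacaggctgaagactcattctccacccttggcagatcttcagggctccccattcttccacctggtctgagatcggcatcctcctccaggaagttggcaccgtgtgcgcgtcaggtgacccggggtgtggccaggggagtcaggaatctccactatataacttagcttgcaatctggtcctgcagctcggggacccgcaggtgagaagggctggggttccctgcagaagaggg
Agr2: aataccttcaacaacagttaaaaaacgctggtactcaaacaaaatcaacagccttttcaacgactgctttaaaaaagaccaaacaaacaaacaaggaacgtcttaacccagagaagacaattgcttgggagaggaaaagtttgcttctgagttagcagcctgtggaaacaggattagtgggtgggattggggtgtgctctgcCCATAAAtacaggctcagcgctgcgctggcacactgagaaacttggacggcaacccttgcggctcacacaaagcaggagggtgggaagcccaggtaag
The E-box began at position -112 from the start in Muc2 and at -208 in Fcgbp, and the CDX2 match at -48 in Agr2. Among 32851 RefSeq windows of the same length, 16.3% held CAGCTG, 2.75% CCATAAA, 3.65% TGTTTAC and 6.04% CCGGAT. None of these letters stood in the windows of Spdef, Muc3 or Muc13, the last with 2 annotated starts. A match is a description of letters and not a site shown to be bound.

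Between VSG and SPF, none of the 10 genes was called by edgeR's quasi-likelihood test with Benjamini-Hochberg adjustment over 15678 genes at a threshold of 0.05. Over all genes 0% were called, and 3.8% had an unadjusted p under 0.05, against 1 of the 10 genes, Muc13. Of the 10, 6 had a fold change above 0 and 4 below (2 above 0 without SPF 4, 8 without VSG 2 or without SPF 3), with a median log2 fold change of 0.044, where 41.9% of all genes tested were above 0 and their median was -0.045. For none of the 10 did the groups separate completely, which 0.549% of all genes did. DESeq2 called 11 genes and limma-voom 0, none of them among the 10.

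Muc2 (ENSMUSG00000025515, chromosome 7), the gel-forming mucin, stood at 2361, 852, 1902, 1730.5 and 2416 CPM in the VSG libraries 1 to 5, against 1684, 1560.3, 2012, 624 and 2270.3 CPM in the SPF libraries 1 to 5. VSG 2 and SPF 4 were the lowest of all, and the groups overlapped over most of their range. Its means were 1852 ± 632 CPM in VSG and 1630.1 ± 628 CPM in SPF (SD, n = 5 each), and the log2 fold change was 0.18 (95% interval -0.62 to 0.99, edgeR adjusted p = 0.985). Without SPF 4 it was -0.011.

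Fcgbp (ENSMUSG00000047730, chromosome 7), a large mucus protein that binds to the MUC2 network, was the steadiest of the secreted products. It stood at 4607, 2945, 4871, 4051 and 4404 CPM in the VSG libraries 1 to 5, against 4007, 4549, 4652, 2422 and 3654 CPM in the SPF libraries 1 to 5. The same 2 libraries were lowest, and the rest lay close together in both groups. The log2 fold change was 0.11 (95% interval -0.43 to 0.66, edgeR adjusted p = 0.985), the narrowest interval among the 10 genes, and -0.0024 without SPF 4.

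Clca3 (ENSMUSG00000028255, chromosome 3), a secreted metalloprotease that cleaves MUC2 and is named Clca1 in GENCODE M21, stood at 3452, 956, 3068, 3120.4 and 2570.0 CPM in the VSG libraries 1 to 5, against 3119.9, 1102, 4231, 519.6 and 4009 CPM in the SPF libraries 1 to 5. In both groups the values fell into a low set, VSG 2, SPF 2 and SPF 4, and a high set. Its log2 fold change was 0.02 (95% interval -1.18 to 1.22, edgeR adjusted p = 0.999), the widest interval among the 10 genes. Without SPF 4 it was -0.24. Reads may be shared with related Clca genes, so its values are uncertain to that extent.

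Zg16 (ENSMUSG00000049350, chromosome 7), a lectin-like protein that binds Gram-positive bacteria in mucus, stood at 3806, 1489, 3265, 2879 and 3454 CPM in the VSG libraries 1 to 5, against 2417, 2310.4, 5933, 1319 and 2231 CPM in the SPF libraries 1 to 5. SPF 3 was far above every other library. Without the value of SPF 3, the highest SPF library lay below 4 of the 5 VSG libraries. The log2 fold change was 0.068 (95% interval -0.81 to 0.95, edgeR adjusted p = 0.994), 0.53 without SPF 3 and -0.11 without SPF 4.

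Tff3 (ENSMUSG00000024029, chromosome 17), the trefoil peptide of epithelial repair, stood at 1609, 593, 1131, 1104 and 1332 CPM in the VSG libraries 1 to 5, against 1141, 854, 2895, 493 and 1050.1 CPM in the SPF libraries 1 to 5. SPF 3 was again highest and SPF 4 lowest. Its means were 1154 ± 373 CPM in VSG and 1287 ± 933 CPM in SPF (SD, n = 5 each), and its log2 fold change was -0.16 (95% interval -1.11 to 0.80, edgeR adjusted p = 0.986). It was 0.39 without SPF 3 and 0.0077 without VSG 2, and just above 0 under some other tests of all 10 libraries, so its sign was not settled.

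Spink4 (ENSMUSG00000028415, chromosome 4), a small secreted peptide of the Kazal inhibitor family, stood at 297, 240.4, 328, 179 and 203 CPM in the VSG libraries 1 to 5, against 259.9, 237, 679.6, 118 and 426 CPM in the SPF libraries 1 to 5. It had the lowest fold change of the 10 genes, -0.46 (95% interval -1.33 to 0.40, edgeR adjusted p = 0.977) on the log2 scale. Without SPF 3 that value was -0.056, and without SPF 4 it was -0.68.

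The remaining goblet cell genes act inside the cell. Agr2 (ENSMUSG00000020581, chromosome 12), a disulfide isomerase needed for MUC2 production, averaged 306 ± 109 CPM in VSG and 330.0 ± 217 CPM in SPF (SD, n = 5 each), with a log2 fold change of -0.11 (95% interval -1.03 to 0.81, edgeR adjusted p = 0.992) and of 0.35 without SPF 3 and 0.032 without VSG 2. Its values ran from 180.0 to 434 CPM in VSG and from 122 to 688 CPM in SPF, with the SPF extremes in SPF 4 and SPF 3. Spdef (ENSMUSG00000024215, chromosome 17), which drives goblet cell maturation, averaged 25.8 ± 5.28 CPM in VSG and 29.5 ± 13.9 CPM in SPF (SD, n = 5 each), with a log2 fold change of -0.20 (95% interval -0.88 to 0.48, edgeR adjusted p = 0.98) and of 0.043 without SPF 5. Its values ran from 18.0 to 30.9 CPM in VSG and from 13.0 to 47.8 CPM in SPF, so the SPF range enclosed the VSG range for both genes.

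The membrane mucins had the highest fold changes of the 10 genes. Muc13 (ENSMUSG00000022824, chromosome 16) stood at 3722, 3985, 4446, 2470.3 and 2789 CPM in the VSG libraries 1 to 5, against 1873, 2252, 2921, 2805 and 1592 CPM in the SPF libraries 1 to 5. Each VSG library lay above SPF 1, SPF 2 and SPF 5, and 3 VSG libraries lay above every SPF library. Its means were 3482 ± 828 CPM in VSG and 2289 ± 576 CPM in SPF (SD, n = 5 each), and the log2 fold change was 0.61 (95% interval 0.045 to 1.17, edgeR adjusted p = 0.977). Its unadjusted edgeR p was 0.0365, which ranked 415th among all genes tested, and none of the 10 genes had an unadjusted p under 0.05 when VSG 1, VSG 3, SPF 1, SPF 2 or SPF 5 was left out. The fold change lay between 0.50 and 0.72 whichever single library was left out. In GENCODE M21 its exons overlap those of Gm15657 on the opposite strand, which had 0.630 to 5.34 CPM, and without strand the reads of both cannot be told apart.

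Muc3 (ENSMUSG00000037390, chromosome 5) stood at 2561, 872, 1811, 2012 and 2916 CPM in the VSG libraries 1 to 5, against 1274, 1466, 1913, 1057 and 1444 CPM in the SPF libraries 1 to 5. 3 VSG libraries exceeded every SPF library, and VSG 2 lay below every SPF library. Its log2 fold change was 0.51 (95% interval -0.17 to 1.18, edgeR adjusted p = 0.977). It was 0.28 with the mean of 10 epithelial markers as a term of the fit, where Muc13 was at 0.58, and 0.34 without VSG 5. Muc3 is repeat-rich and has a related gene, Muc3a, on the same chromosome, so its reads are uncertain as those of 1 gene.

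**Figure D1:**
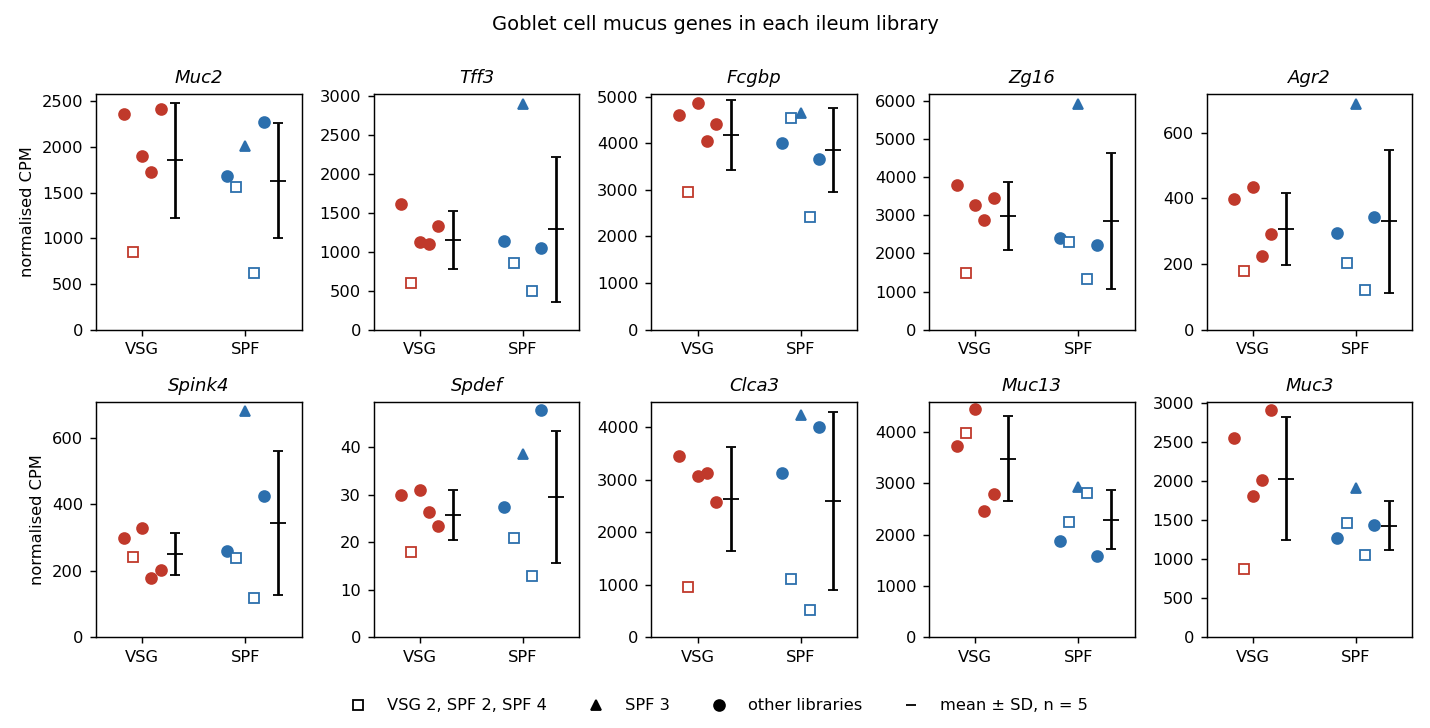
Normalised CPM of each of the 10 genes (y axis, linear from 0) in the VSG and SPF libraries (x axis), with mean ± SD (n = 5) beside the points. Open squares are VSG 2, SPF 2 and SPF 4 and the triangle is SPF 3: for Clca3 the squares lie at 519.6 to 1102 CPM and the other libraries at 2570.0 to 4231 CPM, and for Zg16 the triangle stands at 5933 CPM.

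Set against exon length, the order of the genes was similar in both groups. Levels per kilobase are CPM divided by the GENCODE M21 exon length, and Muc2 and Muc3 are left out because their repeat-rich gene models are incomplete there. Tff3 averaged 2339.8 ± 756 CPM per kilobase in VSG and 2609.9 ± 1892 in SPF (SD, n = 5 each). Zg16 averaged 2369.8 ± 714 and 2261 ± 1418, which did not differ from Tff3 beyond the spread. Muc13 followed at 1146 and 753, Clca3 at 697 and 687, Spink4 at 523 and 721 and Fcgbp at 398 and 367 CPM per kilobase in VSG and SPF. Clca3 and Spink4 changed places between the groups, within their spread. Each SPF mean includes SPF 3, the library with short transcripts high and long ones low. Spink4 was at 679.6 CPM there and at most 426 CPM in the other SPF libraries. Levels per kilobase without SPF 3 were not computed. Agr2 stood at 237 and 256, and the transcription factor Spdef was far below the products, at 11.2 and 12.8.

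VSG 2, SPF 2 and SPF 4, where upper small intestine markers were high, held less of most secreted products, across both surgery groups. This split was made from the position markers and is described with no test. Of the 10 genes, 5 (Muc2, Tff3, Agr2, Spdef and Clca3) had all 3 of these values under the lowest of the other 7, as did 5.64% of all genes tested. None of the 10 had all 3 above the highest of the other 7, as 6.08% of all genes did. Clca3 stood at 519.6 to 1102 CPM in the 3 libraries and 2570.0 to 4231 CPM in the other 7, with a mean 3.92-fold higher in the 7. For Muc2 the ranges were 624 to 1560.3 and 1684 to 2416 CPM, a 2.03-fold higher mean in the 7. Atoh1, the factor that starts the secretory lineage, followed them at 9.03 to 11.9 CPM in the 3 and 25.6 to 41.6 CPM in the 7. Muc13 did not, at 2252 to 3985 and 1592 to 4446 CPM. The sum of 10 epithelial markers was 12159 to 15883 CPM in the 3 and 13385 to 26355 CPM in the 7, with VSG 2 and SPF 4 the lowest of their groups, and its part in these values was not tested. Relative to Epcam, Clca3 stood at 0.286 to 0.458 in the 3 libraries and 0.732 to 2.05 in the other 7. For Tff3 these ratios were 0.271 to 0.344 and 0.353 to 0.731. Muc2 over Epcam was 0.408 in VSG 2 and 0.343 in SPF 4, under the 0.508 to 1.16 of the other 7, but 0.628 in SPF 2. The ratios of Agr2 and Spdef to Epcam overlapped between the 3 and the 7. Fcgbp over Epcam was 1.41 in VSG 2, 1.83 in SPF 2 and 1.33 in SPF 4, within the 1.17 to 1.87 of the other 7.

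Without VSG 2, SPF 2 and SPF 4, in a comparison of 4 VSG and 3 SPF libraries, none of the 10 genes was called by edgeR. Over all 15911 genes of that fit 0% were called and 6.96% had an unadjusted p under 0.05, against 2 of the 10 genes, Spink4 and Muc3. The log2 fold change was 0.66 ± 0.31 (SE) for Muc13 and 0.59 ± 0.25 for Muc3. It was 0.082 ± 0.22 for Muc2 and 0.13 ± 0.21 for Fcgbp, the proteins of the gel network. Spink4 was at -0.85 ± 0.34, Spdef at -0.45 ± 0.20, Tff3 and Agr2 both at -0.39, Clca3 at -0.31 and Zg16 at -0.072. SPF 3 is 1 of only 3 SPF libraries in this comparison and the highest of all for Spink4, Tff3, Agr2, Clca3 and Zg16, and the values without it as well were not computed. Their adjusted p from edgeR ran from 0.696 for Spink4 to 0.970 for Zg16.

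**Figure D2:**
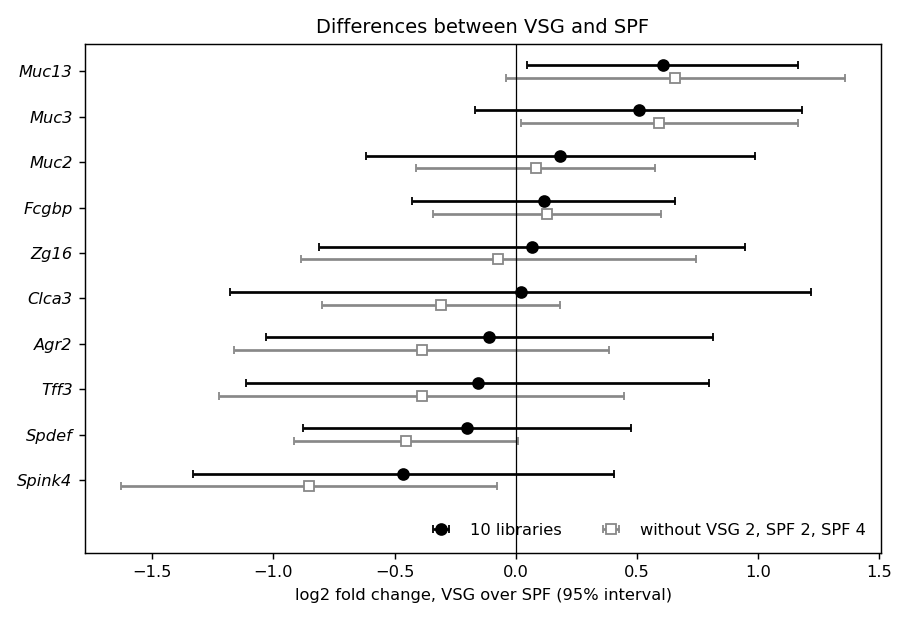
Log2 fold change of VSG over SPF (x axis) with its 95% interval for each of the 10 genes (rows), from all 10 libraries (filled circles) and without VSG 2, SPF 2 and SPF 4 (open squares). In the 10 libraries the interval of Muc13, 0.045 to 1.17, is the one that does not cross 0, and in the 7 those of Muc3 and Spink4.

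SPF 3 was the highest library for 5 of the 10 genes, Tff3, Zg16, Agr2, Spink4 and Clca3. Compared with the mean of the other 9 libraries, its level was 2.80-fold for Tff3, 2.67-fold for Spink4, 2.49-fold for Agr2 and 2.30-fold for Zg16, the genes with the shortest exon lengths (477 to 1291 bases). For Fcgbp (10497 bases) and for Muc2 it was 1.18-fold. Length moved with level over all genes in this library. The median log2 deviation of SPF 3 from the other 9 was 0.74 for genes under 1000 bases and -0.49 for genes of 8000 bases and more, whereas the other libraries stayed between -0.27 and 0.17 in those classes. Leaving out Muc2 and Muc3, whose gene models are incomplete, 7 of 8 genes lay above the median of their own length class in SPF 3, and Muc13 lay below it. SPF 3 also had the lowest sum of 8 smooth muscle markers, 261 CPM against 660.4 to 3618 CPM in the other 9, and the highest sum of 10 epithelial markers, 26355 against 12159 to 21876 CPM. Their part in the goblet cell values was not tested.

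**Figure D3:**
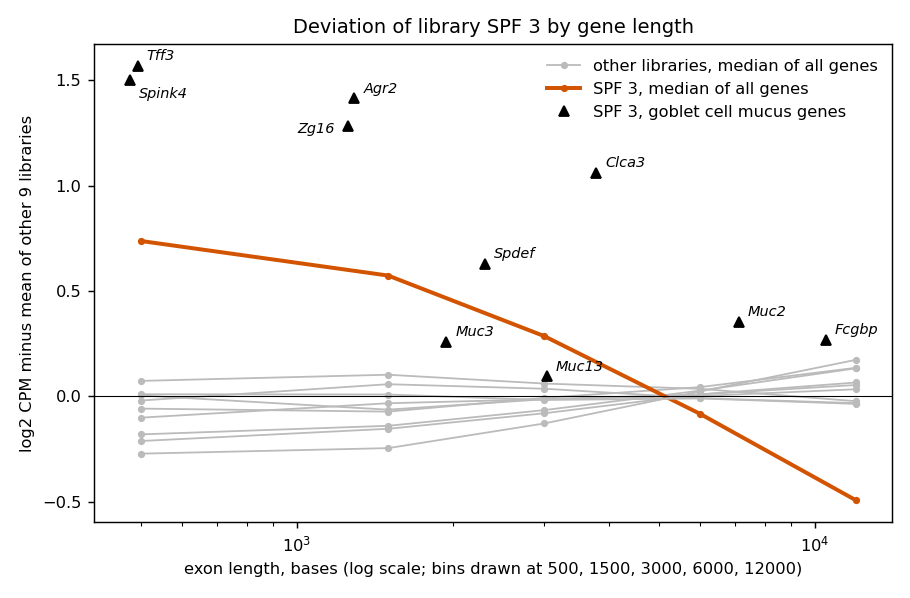
Deviation of SPF 3 from the mean of the other 9 libraries in log2 CPM (y axis) against exon length in bases (x axis, log scale): triangles are the 10 genes and the orange line is the median of all genes in 5 length classes. Grey lines are the same medians for the other libraries, Muc2 and Muc3 are placed by incomplete gene models, and the short genes Tff3 and Agr2 lie at 1.57 and 1.41.

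Ratios within a library showed how far the genes kept step. Tff3 over Muc2 was 0.551 to 0.697 in VSG and 0.463 to 1.44 in SPF, and Zg16 over Muc2 1.43 to 1.75 in VSG and 0.983 to 2.95 in SPF, so both ratios were tighter among the VSG libraries. The highest SPF ratio was that of SPF 3 for both, the library with short transcripts high and long ones low. Not every ratio was tighter in VSG. Spdef over Muc2 was 0.00971 to 0.0211 in VSG and 0.0134 to 0.0211 in SPF, and Spink4 over Muc2 0.0841 to 0.282 and 0.152 to 0.338. Clca3 over Muc2 was 1.06 to 1.80 in VSG and 0.707 to 2.10 in SPF. Muc2 over Epcam, a surface protein of all gut epithelial cells, was 0.408 to 0.688 in VSG and 0.343 to 1.16 in SPF, with the highest value in SPF 5.

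The gene most like Muc2 over the 10 libraries, among 11012 genes with at least 5 CPM, was 2200002K05Rik (ENSMUSG00000031937), named Vstm5 in GENCODE M21. It stood at 58.5, 27.8, 48.1, 47.2 and 60.5 CPM in the VSG libraries 1 to 5, against 41.6, 33.5, 55.6, 18.7 and 56.6 CPM in the SPF libraries 1 to 5. The libraries had the same order by both genes, and within the 7 libraries Pearson's r was 0.947, a description of a gene picked for its likeness. Med17, Gsn, Fbxo32 and Atg14 came next, with r of 0.545 to 0.850 within the 7 libraries. Among the goblet cell genes, Clca3 ranked 80th, Fcgbp 152nd, Spdef 349th, Muc3 412th, Zg16 451st, Tff3 478th, Agr2 550th, Spink4 1549th and Muc13 7048th of the 11012 in likeness to Muc2 over all 10 libraries. Within the 7 libraries r with Muc2 was 0.0456 for Clca3, 0.114 for Fcgbp, 0.202 for Tff3 and 0.609 for Muc3, so the likeness of Clca3, Fcgbp and Tff3 to Muc2 was low within these libraries.

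Of 13 other products of goblet cells 9 were tested, 1 with a fold change above 0 and 8 below. Their median log2 fold change was -0.24, and by edgeR 0 were called and 0 had an unadjusted p under 0.05. Over all genes tested the median was -0.045, 41.9% were above 0, 0% were called and 3.8% had such a p. Ang4, an antimicrobial ribonuclease that Paneth cells also make, averaged 181 ± 138 CPM in VSG and 348 ± 257 CPM in SPF (SD, n = 5 each), with -0.94 ± 0.71 (SE) on the log2 scale (edgeR adjusted p = 0.977). Without VSG 2, SPF 2 and SPF 4 it was -1.94 ± 0.49 (edgeR adjusted p = 0.633), and with single libraries left out it ranged between -1.43 (without VSG 2) and -0.51 (without SPF 5). The sum of 8 Paneth cell markers ranged over 2529 to 13938 CPM in VSG and 2013 to 19329 CPM in SPF, 7 of the 8 had fold changes below 0, and their part in the Ang4 value was not tested. Rep15, a RAB15 effector, and Fxyd3, an ion pump regulator, had log2 fold changes of -0.41 ± 0.30 and -0.37 ± 0.27, and of -0.051 and -0.056 without SPF 3. Retnlb, a goblet cell antimicrobial known to be induced by worms and microbes, had at most 0.624 CPM in any library and was too low to be tested, as were Tff1, Tff2 and Best2.

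Factors of the secretory lineage gave 5 fold changes above 0 and 8 below of 13 tested, with a median log2 fold change of -0.094. By edgeR 0 were called and 2 had an unadjusted p under 0.05 (Dll4 and Foxa2), as did 3.8% of all genes tested. Over all genes tested, 41.9% had a fold change above 0, 0% were called and the median was -0.045. Atoh1 averaged 26.4 ± 8.49 CPM in VSG and 26.3 ± 15.3 CPM in SPF (SD, n = 5 each), and its log2 fold change had a 95% interval from -0.96 to 0.96. Klf4, a factor of goblet cell differentiation, had 0.042 ± 0.26. Dll4, a Notch ligand, stood at 21.6, 17.8, 25.7, 19.4 and 22.6 CPM in the VSG libraries 1 to 5, against 15.2, 14.5, 15.3, 10.2 and 17.3 CPM in the SPF libraries 1 to 5. In whole tissue, the cells that held this RNA cannot be told. Every VSG library lay above every SPF library, a pattern of 0.549% of all genes in either direction. Its log2 fold change was 0.56 ± 0.16 (SE, edgeR adjusted p = 0.977). Foxa2, which acts on mucin genes, stood at 3.34 ± 0.512 CPM in VSG and 4.96 ± 1.22 CPM in SPF, a log2 fold change of -0.57 ± 0.22 (edgeR adjusted p = 0.977). Hes1, the Notch target that opposes Atoh1, had 0.33 ± 0.23.

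Genes of mucin glycosylation and sulfation had 13 fold changes above 0 and 2 below of 15 tested, with 0 called by edgeR and a median log2 fold change of 0.32, against -0.045 over all genes. Of the 15, 3 had an unadjusted p under 0.05 by edgeR, and the genes of lowest p were those picked for description. Over all genes tested, 41.9% had a fold change above 0 and 3.8% an unadjusted p under 0.05. Gcnt3, which makes core branches of mucin O-glycans, stood at 179, 115, 267, 168 and 206 CPM in the VSG libraries 1 to 5, against 125, 51.4, 136, 45.9 and 91.2 CPM in the SPF libraries 1 to 5. Among the VSG libraries only VSG 2 lay below the highest SPF libraries, and the low SPF values were those of SPF 2, SPF 4 and SPF 5. The log2 fold change was 1.06 ± 0.33 (SE, edgeR adjusted p = 0.977), and 0.81 ± 0.22 without the 3 libraries. Slc26a2, a sulfate transporter, averaged 404 ± 51.7 CPM in VSG and 258 ± 87.2 CPM in SPF (SD, n = 5 each), with 0.65 ± 0.25 (SE) on the log2 scale (edgeR adjusted p = 0.977). B4galnt2, which adds the terminal sugar of an intestinal blood group antigen, averaged 363 ± 34.0 CPM in VSG and 268 ± 72.7 CPM in SPF (SD, n = 5 each), with 0.44 ± 0.18 (SE) on the log2 scale (edgeR adjusted p = 0.977). St6galnac1, a sialyltransferase of mucins, ranged over 0.120 to 1.75 CPM in VSG and 0.591 to 1.84 CPM in SPF, with -0.76 ± 0.62 on the log2 scale, -1.70 without VSG 2 and -0.46 without SPF 2. Absorptive cells also use these enzymes, and the sum of 10 epithelial markers was 14798 to 21876 CPM in VSG and 12159 to 26355 CPM in SPF. With these 10 markers averaged and entered as a term of the fit, the log2 fold change was 0.89 for Gcnt3, 0.58 for Slc26a2 and 0.45 for B4galnt2.

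Genes of mucin folding had 5 fold changes above 0 and 6 below of 11 tested, 0 called by edgeR and 0 with an unadjusted p under 0.05. Ern2, the epithelial stress sensor that guards mucin folding, had a log2 fold change of -0.19 ± 0.32, Xbp1 of 0.21 ± 0.16, Creld2 of 0.23 ± 0.19 and the Agr2 relative Agr3, at 0.826 CPM in VSG and 1.36 CPM in SPF, of -0.72 ± 0.35. Other mucins and mucin-like proteins gave 4 above 0 and 1 below of 5 tested, likewise with 0 and 0, with Cdhr2 and Cdhr5, protocadherins of the brush border, at 0.40 ± 0.24 and 0.36 ± 0.25 and Muc20 at -0.38 ± 0.53. The gel mucins Muc5ac, Muc5b and the membrane mucins Muc1 and Muc15 were too low to be tested. Genes of mucus release split into 6 above 0 and 6 below of 12, again with 0 and 0. Over all genes tested, 41.9% had a fold change above 0, 0% were called and 3.8% had an unadjusted p under 0.05. Mep1b, the protease that frees MUC2 from the small intestinal epithelium, averaged 1678 ± 170.2 CPM in VSG and 1261 ± 399 CPM in SPF (SD, n = 5 each), with 0.41 ± 0.24 (SE) on the log2 scale (edgeR adjusted p = 0.977). Slc4a4, a bicarbonate transporter, had 0.35 ± 0.25, the chloride channel Cftr -0.13 ± 0.22 and the inflammasome sensor Nlrp6 -0.19 ± 0.17.

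Of the cytokines and receptors that act on goblet cells, 6 of 10 were tested, 3 with fold changes above 0 and 3 below. By edgeR 0 were called and 1 (Il4ra) had an unadjusted p under 0.05, as did 3.8% of all genes tested. Over all genes tested, 41.9% had a fold change above 0 and 0% were called. Il4ra, the receptor chain shared by interleukins 4 and 13, stood at 213, 214, 285, 167 and 213 CPM in the VSG libraries 1 to 5, against 126, 136, 168, 146 and 159 CPM in the SPF libraries 1 to 5. The VSG libraries lay above the SPF libraries except that VSG 4, at 167.1 CPM, lay just below SPF 3, at 167.8 CPM. Its log2 fold change was 0.57 ± 0.16 (SE, edgeR adjusted p = 0.977). Il13ra1 and Il22ra1 had 0.15 ± 0.16 and 0.19 ± 0.21, and Il13, Il4, Il22 and Il25 were too low to be tested.

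**Figure D4:**
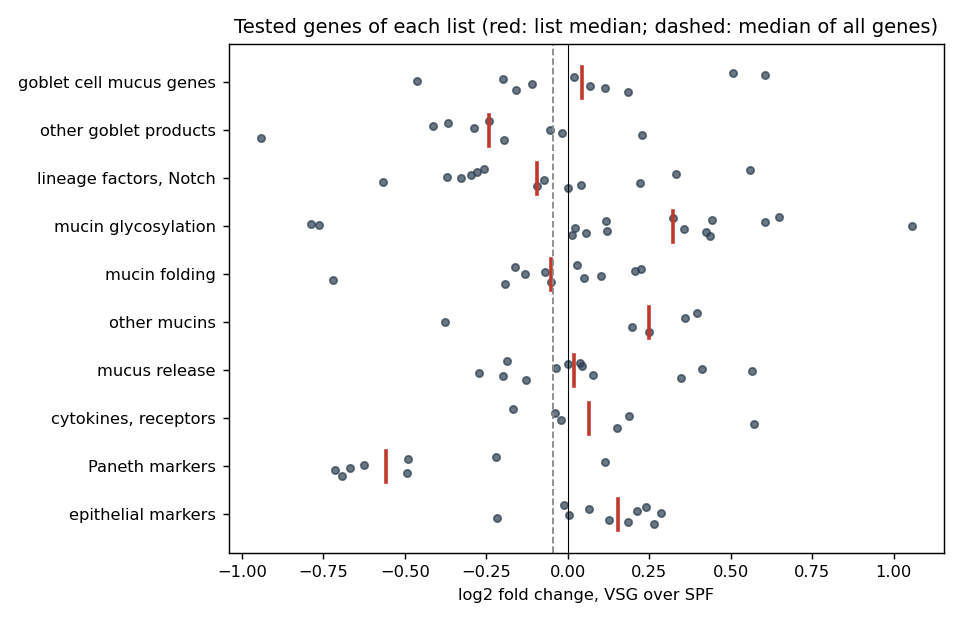
Log2 fold change of VSG over SPF (x axis) of each tested gene in 10 lists (rows), with the list median in red and the median of all genes dashed. The points of mucin glycosylation lie mostly above 0, with a median of 0.32, and those of the Paneth markers mostly below, with a median of -0.56.

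**Figure D5:**
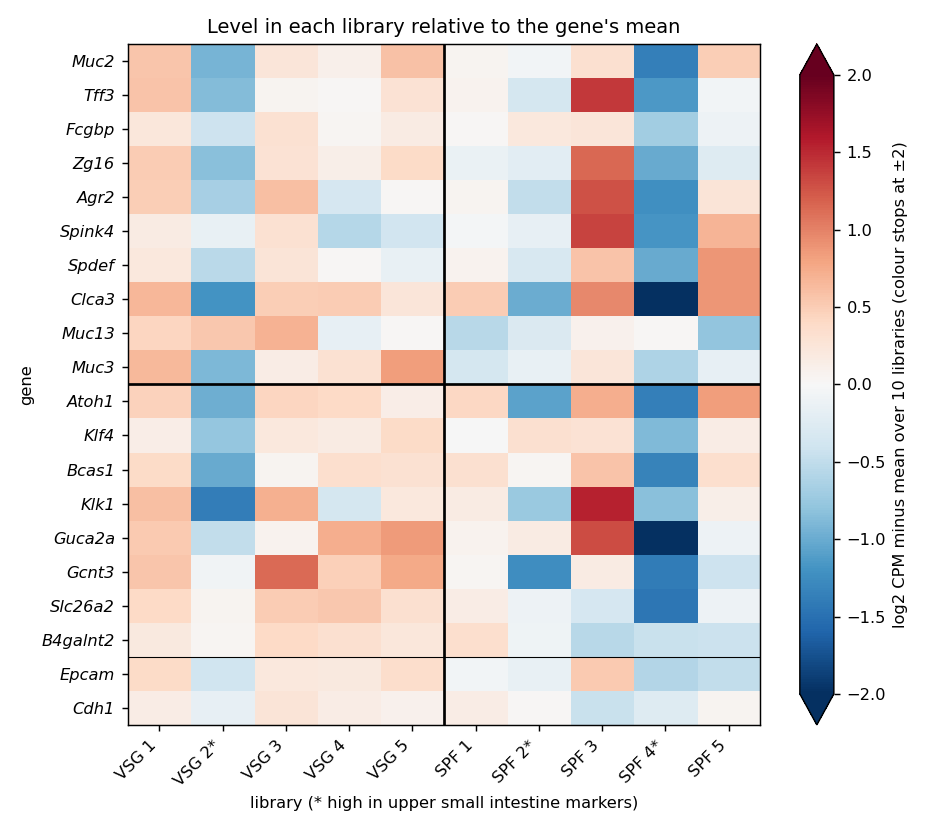
Log2 CPM of the 10 genes (top block), of other goblet cell and mucin genes (middle) and of 2 epithelial markers (bottom) in each library (columns, VSG 1 to 5, then SPF 1 to 5), minus the gene's mean over the 10 libraries, with colours stopping at the ends of the scale. The middle genes were picked with no rule. The columns VSG 2 and SPF 4 are blue for most of the goblet cell genes shown. SPF 3 is red for Tff3, Zg16, Agr2 and Spink4, and Muc13 departs from both patterns. Ang4, St6galnac1 and Muc20 are not shown. With single libraries left out, their log2 fold changes were lowest without VSG 2, at -1.43, -1.70 and -0.90.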

How the data were processed

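RNA of mouse terminal ileum was sequenced as single-end reads from TruSeq RNA libraries, per the labels' protocols. The authors deposited 1 table of estimated counts for each library, keyed by Ensembl ID. The tables are named RPKM, but their values are of the size of read numbers, and 61.18% are whole. The authors also deposited log2 values, which were found to be these counts over 1 factor a library, set against the SPF median (SD of the offset over genes at most 3.45e-07). The submitters' processing notes name DESeq and mm9. Aligner, annotation and strand are not given in the sources used here.

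Counts were rounded and tested with edgeR 4.0.16 (R 4.3.3): filterByExpr, TMM, the quasi-likelihood F test of VSG against SPF with no covariate, Benjamini-Hochberg adjustment over all genes, threshold 0.05. Intervals are at the 95% level, and SE is the fold change over the root of F. Log2 CPM used a prior count of 2. The procedure was tested on simulated counts of 5 against 5 libraries. It recovered 53% of 2-fold and 94% of 4-fold changes, and 5 of 152 calls were false. Changes were planted only in genes with a mean above 5 CPM, so lower genes such as Foxa2, Agr3 and St6galnac1 are not covered. Each gene was drawn on its own, without the shared patterns of VSG 2, SPF 2, SPF 4 and SPF 3. The 10 genes had fold changes of 0.725 (Spink4) to 1.52 (Muc13), smaller than those simulated, so such changes could be missed. The 10 genes and the lists were chosen with earlier results of these data known. Named are the 10 genes, the 3 genes of lowest p in each goblet cell list, 8 genes always named, and the 5 most like Muc2 (Pearson's r). Alternatives were other scalings, filters and tests (DESeq2 1.42.0, limma 3.58.1), an epithelial covariate, a replicate block and each library left out. The removal of VSG 2, SPF 2 and SPF 4 together was chosen with the data known. Promoter windows and exon lengths are from RefSeq (GRCm38.p6) and GENCODE M21, another build than mm9.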

Additional observations from a re-analysis of the deposited data

Results flagged for a closer look

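Among 74 groups of 5 libraries, for the 10 genes and the 27 others named from lists (the 5 genes most like Muc2 were not examined), 6 held a library far from the other 4 by Dixon's criterion, where chance gives about 1 in 20, or 3.7. In SPF the library SPF 3 was far above the others for Tff3 (2895 CPM, next 1141), Zg16 (5933 CPM, next 2417) and Fxyd3 (15.9 CPM, next 8.69). In VSG the library VSG 2 was far below the others for Klf4 (189 CPM, next 352). Retnlb stood at 0.203 CPM in VSG 3 and 0.624 CPM in SPF 5, with all other libraries of those groups at 0.0788 CPM or less. These were 3 reads in VSG 3 and 24 reads in SPF 5.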

How the results depend on the processing

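No alternative called any of the 10 genes. DESeq2 called 11 genes in all. With the epithelial marker mean as a covariate 2 of the 10 genes were higher in VSG instead of 6. Over all genes 46.3% were higher in that fit, against 41.9% in the main one. There 2 of the 10 genes and 662 of all 15678 had an unadjusted p under 0.05 by edgeR. Tff3 was at -0.36 ± 0.16 (SE) on the log2 scale in that fit. Leaving out single libraries gave 2 (without SPF 4) to 8 higher and 0 genes called. Muc13, Muc3 and Spink4 kept their direction under every alternative run, at 0.50 to 0.72, 0.28 to 0.70 and -0.85 to -0.056. With the epithelial covariate the log2 fold change turned to -0.068 for Muc2, -0.0089 for Fcgbp, -0.14 for Zg16, -0.27 for Clca3, -0.23 for Atoh1, -0.11 for Klf4 and 0.044 for Cftr. With limma-voom, the replicate block and the deposited log2 values it turned to 0.043, 0.033 and 0.042 for Tff3 and 0.092, 0.048 and 0.068 for Agr2. With upper quartile scaling and library totals it was -0.053 and -0.055 for Clca3, -0.073 and -0.083 for Atoh1 and -0.013 and -0.018 for Klf4. Atoh1 was at -0.00088 with no filter and -0.0062 with the stricter one. Without VSG 2, SPF 2 and SPF 4 Zg16, Clca3, Atoh1 and Creld2 were at -0.072, -0.31, -0.31 and -0.028. The causes were not tested.

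With single libraries left out, the log2 fold change ran from -0.011 (without SPF 4) to 0.37 (without VSG 2) for Muc2, -0.37 (without SPF 4) to 0.39 (without SPF 3) for Tff3, -0.0024 (without SPF 4) to 0.22 (without VSG 2) for Fcgbp, -0.11 (without SPF 4) to 0.53 (without SPF 3) for Zg16, -0.32 (without SPF 4) to 0.35 (without SPF 3) for Agr2, -0.38 (without SPF 4) to 0.043 (without SPF 5) for Spdef, -0.24 (without SPF 4) to 0.27 (without SPF 3) for Clca3, -0.21 (without SPF 4) to 0.22 (without SPF 5) for Atoh1, -0.37 (without SPF 4) to 0.021 (without SPF 1) for Ern2 and -0.10 (without SPF 4) to 0.19 (without VSG 2) for Klf4. Same-numbered libraries of VSG and SPF did not deviate together (correlations -0.355 to 0.298, none of the VSG libraries closest to its own number). These deviations also hold the apartness of VSG 2, SPF 2, SPF 4 and SPF 3, so they cannot show whether mice were paired by number. The labels do not tie the pair-feeding to these numbers. The replicate block left 0 genes called and 8 of the 10 genes higher. Over all genes the median log2 fold change was -0.045 with TMM, -0.0996 with upper quartile scaling and -0.111 with library totals. Among genes with an unadjusted p under 0.05, 49.6% were higher with TMM, 30.4% with upper quartile scaling and 32.2% with library totals. The number with such a p was 595, and 1940 without SPF 3 and 1135 without VSG 2.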
